A study of Homo sapiens with 6 samples.

Results

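Small leucine-rich proteoglycans (SLRPs) and olfactomedin-like proteins were followed through 10 genes in the human inflammatory breast cancer line SUM149. The genes were DCN, BGN, ASPN, LUM, FMOD, PRELP and OGN, which encode SLRPs, and OLFML3, OLFML2A and OLFML2B, which encode olfactomedin-like proteins. They were read by 23 probe sets, each annotated to 1 of the 10 symbols, of 41091 probe sets with a single symbol and 19775 genes in all. DCN and OLFML3 were picked because their signals in the siTIG1 group lay far above those of the control group, at ranks 12 and 8 of all genes. Their differences between the groups are therefore given as a description, with no test, and the other 8 genes were included as relatives of these.

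All cells were transiently transfected with siRNA at 200 nmol/L by oligofectamine. The siControl group had a non-targeting siGENOME pool (3 arrays), and the siTIG1 group an ON-TARGET Plus pool against TIG1 (3 arrays), the tazarotene-induced gene now named RARRES1. The groups thus differed in both the target and the product line of the siRNA. Cells were grown with FBS, insulin and hydrocortisone, and the labels give no time from transfection to RNA extraction. Nor do they say that the 3 arrays of a group came from separate cultures; p-values therefore measure only the spread between arrays, which may be technical.

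SLRPs are secreted proteins whose core is a curved stack of leucine-rich repeats, flanked by cysteines, that binds collagen fibrils and limits their thickness. Decorin and biglycan carry chondroitin or dermatan sulfate chains, whereas lumican and fibromodulin can carry keratan sulfate. Decorin also binds TGF-beta and receptor tyrosine kinases including EGFR and MET, and in breast tissue it is mainly a product of stromal fibroblasts. Olfactomedin-like proteins are secreted glycoproteins with an olfactomedin domain, and OLFML3 is known as a scaffold for BMP1 and chordin and as a factor in blood vessels.

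The arrays gave log2 signals without a detection call or a background estimate, so whether a low signal exceeds background is unknown, and folds measured from one can be too small. Signals of different probe sets are not compared as levels. The siControl replicate 3 array stood apart, with correlations of 0.985 to the other controls across probe sets, whereas those 2 correlated at 0.998 and the siTIG1 arrays at 0.998 to 0.999 among themselves. With the siTIG1 arrays siControl replicates 1 and 2 correlated at 0.992 to 0.993, thus more closely than with siControl replicate 3. RARRES1, the targeted gene, had lower means in the siTIG1 group on its 3 probe sets, with log2 differences of -1.28, -1.24 and -0.83, but none passed over all probe sets (limma adjusted p = 0.20, 0.23 and 0.27). The size of these differences rests in part on siControl replicate 3. That array read 12.58, 13.55 and 13.74, against 11.04, 11.89 and 12.65 on siControl replicate 1 and 10.92, 11.88 and 12.61 on siControl replicate 2. On probe set 221872_at the array labelled siTIG1 replicate 1 read 12.69, against 12.65 and 12.61 on siControl replicates 1 and 2 and 11.95 and 11.87 on the other siTIG1 arrays. As a measure of RNA degradation, the ACTB signal at the 3' end exceeded that at the 5' end by 2.85 ± 0.31 in siControl and by 2.25 ± 0.10 in siTIG1 (SD, n = 3 each). For GAPDH the groups lay closer, at 0.50 ± 0.06 and 0.46 ± 0.01 (SD, n = 3 each). The part of RNA degradation in the results was not tested.

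OLFML3 was higher on every siTIG1 array than on any control array. Its single probe set read 8.77, 8.79 and 8.35 on the control arrays and 10.85, 11.01 and 11.01 on the siTIG1 arrays. The means were 8.64 ± 0.25 and 10.96 ± 0.10 (SD, n = 3 each), a difference of 2.32 ± 0.13 (SE of the limma fit). The siTIG1 arrays lay close together, and the control spread came mainly from replicate 3, without which the difference was 2.17.

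The other olfactomedin-like genes did not share this pattern. OLFML2A, which encodes photomedin-1, a secreted protein known from the retina, read 8.18, 8.45 and 8.32 on the control arrays and 8.37, 8.38 and 8.36 on the siTIG1 arrays, so that the siTIG1 values lay inside the control range. Its difference was 0.05 ± 0.08 (SE, limma adjusted p = 0.76). OLFML2B, which encodes photomedin-2, read 7.05, 6.96 and 7.13 on the control arrays and 7.03, 7.15 and 7.19 on the siTIG1 arrays. Its groups overlapped as well, with a difference of 0.08 ± 0.07 (SE, limma adjusted p = 0.59).

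The sequences before the OLFML3 and OLFML2B starts are shown because one gene differed between the groups and the other, a relative, did not pass. Each is the 250 bases before the RefSeq gene start (GRCh38.p14), 5' to 3' on the gene's strand, at chr1:113979224-113979473 on the plus strand and chr1:162023870-162024119 on the minus strand, with motif matches in capitals.
OLFML3: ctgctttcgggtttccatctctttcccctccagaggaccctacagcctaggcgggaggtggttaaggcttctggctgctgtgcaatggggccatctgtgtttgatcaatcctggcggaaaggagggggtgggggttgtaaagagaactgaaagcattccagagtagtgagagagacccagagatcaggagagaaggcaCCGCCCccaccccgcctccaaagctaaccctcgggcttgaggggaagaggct
OLFML2B: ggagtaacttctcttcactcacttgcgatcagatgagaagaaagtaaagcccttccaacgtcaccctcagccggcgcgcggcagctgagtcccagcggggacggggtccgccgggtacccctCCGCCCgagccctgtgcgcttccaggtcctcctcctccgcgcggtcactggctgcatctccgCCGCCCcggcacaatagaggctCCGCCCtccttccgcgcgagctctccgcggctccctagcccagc
Both strands were searched for 6 motifs, and matches of one motif may overlap another. The OLFML3 window held 1 GC box, starting 52 bases before the gene, and none of the other motifs. The OLFML2B window held 3 GC boxes, starting 128, 66 and 44 bases before the gene. The GC box, searched as GGGCGG, was present in 42.6% of 35116 RefSeq promoter windows of this length. The TATA box, searched as TATAAA, was present in 10.7% of them, and the AP-1 site, searched as TGANTCA, in 6.57%. For the CCAAT box the share was 32.0%. The forkhead site, searched as TGTTTAC, was in 2.98% of windows, and the nuclear receptor element, searched as AGGTCA, was in 12.1%. The OLFML3 window held 6 CG dinucleotides and 57.6% G and C, and that of OLFML2B 25 and 67.6%, with medians over all windows of 11 and 58.0%. Of the 10 genes, 8 had an entry, without DCN and LUM.

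**Figure D1:**
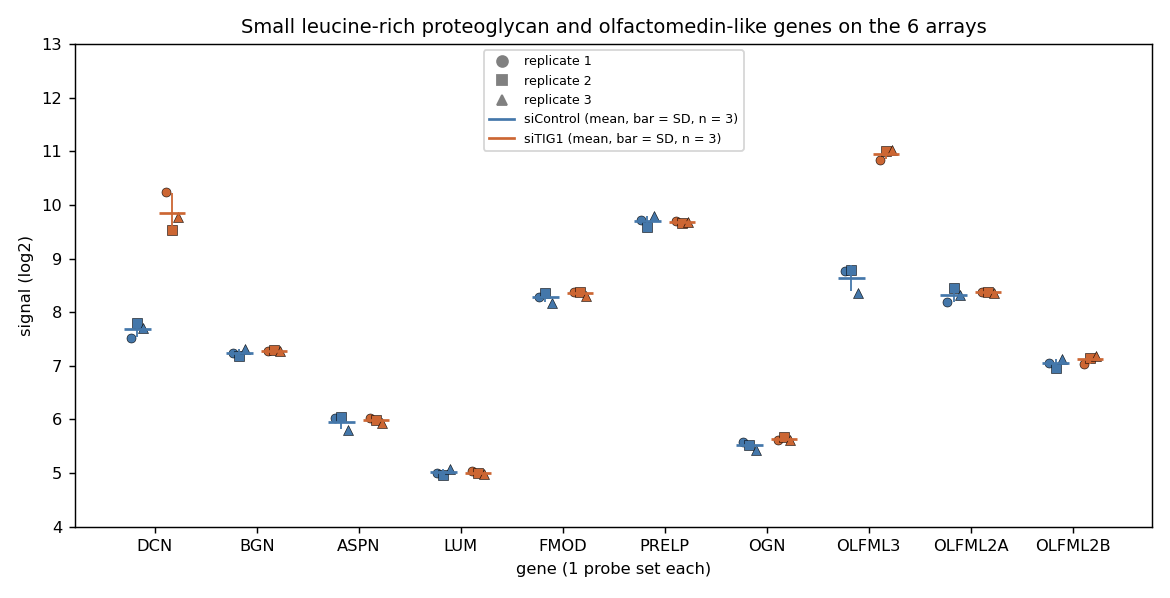
Signal (log2) of the probe set that stands for each of the 10 genes, by array; points are arrays (circle, square and triangle for replicates 1, 2 and 3), horizontal lines are group means and vertical bars the SD (n = 3). DCN and OLFML3 stand apart between the groups, with control means of 7.68 and 8.64 and siTIG1 means of 9.85 and 10.96, and the other 8 genes differ by at most 0.11.

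Decorin (DCN) was higher on every siTIG1 array than on any control array for 6 of its 7 probe sets, a pattern found on 14.8% of all probe sets, and siTIG1 replicate 1 had its highest signal on all 7. Probe set 211896_s_at, which stands for the gene, read 7.52, 7.81 and 7.71 on the control arrays and 10.25, 9.53 and 9.77 on those of siTIG1. The means were 7.68 ± 0.15 and 9.85 ± 0.37 (SD, n = 3 each), and the difference was 2.17 ± 0.19 (SE of the limma fit). No siTIG1 array came within the control range, and siTIG1 replicate 1 was the highest. Leaving out that array gave 1.97, and leaving out siControl replicate 3 gave 2.19.

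DCN was read by 7 probe sets, and the size of the difference depended on which was used. Probe set 209335_at averaged 7.28 ± 0.11 and 9.13 ± 0.32 (SD, n = 3 each), a difference of 1.84. The 2 probe sets whose names end in x_at, which can bind several transcripts, differed by 1.63 (201893_x_at, from 9.79 ± 0.08 to 11.42 ± 0.31) and 1.53 (211813_x_at, from 8.90 ± 0.11 to 10.43 ± 0.30; SD, n = 3 each). Thus 4 probe sets gave differences of 1.53 to 2.17. On the remaining 3 the control means were 5.38 ± 0.13 (242605_at), 5.80 ± 0.04 (240556_at) and 6.56 ± 0.10 (239786_at; SD, n = 3 each), with differences of 0.63, 0.29 and 0.10. The groups overlapped on 239786_at alone. The mean over all 7 gave a DCN difference of 1.17, so the size stated for the gene depends on the probe set that stands for it.

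Of the other siTIG1 arrays, replicate 3 was above replicate 2 on 4 of the 7 DCN probe sets. On 201893_x_at siTIG1 replicate 1 read 11.76, against 11.15 and 11.36 on siTIG1 replicates 2 and 3. Replicate 1 is the siTIG1 array with the highest RARRES1 signal, 10.72 on probe set 206391_at against 10.03 and 9.96 on the other siTIG1 arrays, where siControl replicates 1 and 2 read 11.04 and 10.92. OLFML3 had its lowest siTIG1 value on the same array (10.85), where DCN had its highest.

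**Figure D2:**
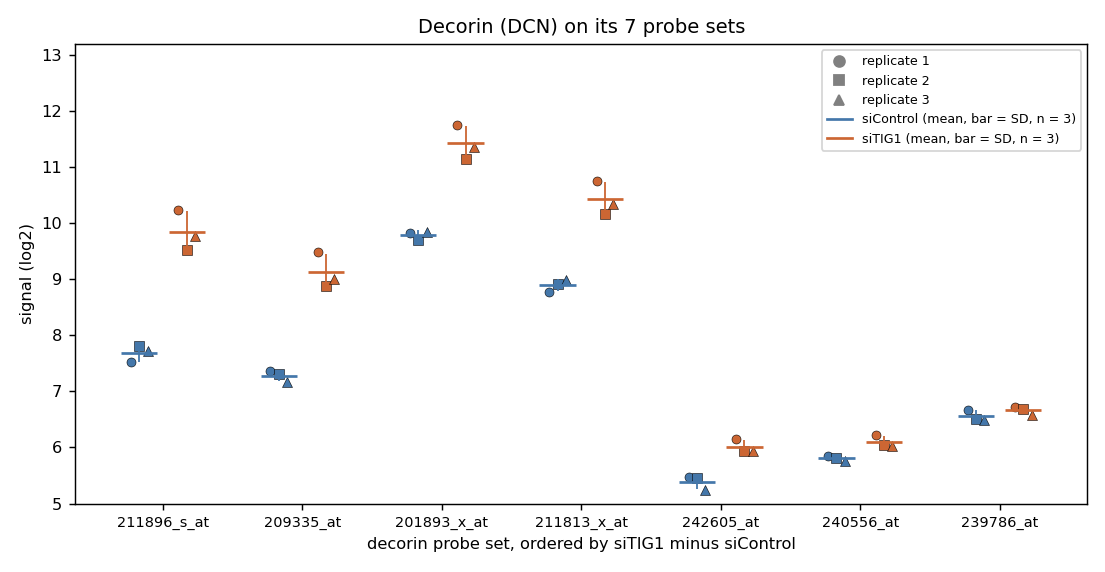
Signal (log2) of the 7 DCN probe sets by array, ordered by siTIG1 minus siControl; points are arrays, horizontal lines group means and vertical bars the SD (n = 3). The circle of siTIG1 replicate 1 is the highest point on every probe set, and the difference goes from 2.17 on 211896_s_at to 0.10 on 239786_at.

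The other class I SLRPs, biglycan and asporin, did not pass the test. BGN, the closest relative of decorin, was represented by 201262_s_at, which read 7.25, 7.18 and 7.32 on the control arrays and 7.27, 7.30 and 7.28 on the siTIG1 arrays. Its difference was 0.03 ± 0.05 (SE, limma adjusted p = 0.80). Its other probe sets were high on siControl replicate 3, which read 8.67 on 201261_x_at and 8.79 on 213905_x_at, whereas siControl replicates 1 and 2 lay at 7.93 to 8.05 and the siTIG1 arrays at 8.16 to 8.28. Their differences were -0.02 and -0.01 with all arrays, and without siControl replicate 3 they were 0.20 and 0.27 and passed (limma adjusted p = 0.047 and 0.0125 over all probe sets). When that array was left out 27.1% of all genes passed, against 7.29% with all arrays. ASPN, asporin, which binds TGF-beta and collagen, read 6.03, 6.05 and 5.80 on the control arrays and 6.02, 5.99 and 5.94 on the siTIG1 arrays on 224396_s_at, with overlapping groups (difference 0.02 ± 0.08 SE, limma adjusted p = 0.91).

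Class II SLRPs did not pass either. LUM, lumican, a regulator of collagen fibrils in cornea and skin, read 5.01, 4.96 and 5.08 on the control arrays and 5.05, 5.00 and 4.98 on the siTIG1 arrays on 229554_at, and its other probe set lay at 4.64 to 4.75 on all 6 arrays. These signals are near the lowest on the arrays, 4.28, and the LUM difference was -0.01 ± 0.05 (SE, limma adjusted p = 0.95). FMOD, fibromodulin, read 8.29, 8.37 and 8.18 on the control arrays and 8.37, 8.37 and 8.31 on the siTIG1 arrays, with a difference of 0.07 ± 0.06 (SE, limma adjusted p = 0.59). PRELP, which links basement membrane to connective tissue, read 9.72, 9.59 and 9.79 against 9.71, 9.66 and 9.68 on 37022_at, a difference of -0.01 ± 0.06 (SE, limma adjusted p = 0.92). On another PRELP probe set, 228224_at, the groups did not overlap (5.88 to 5.95 against 6.02 to 6.07), but the difference of 0.11 did not pass over all probe sets (limma adjusted p = 0.29).

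OGN, osteoglycin, a class III SLRP, read 5.59, 5.53 and 5.44 on the control arrays and 5.61, 5.67 and 5.61 on the siTIG1 arrays on 222722_at. The groups did not overlap, but they were separated by less than the spread among the controls, and the difference of 0.11 ± 0.06 (SE) did not pass (limma adjusted p = 0.34). Of the 8 genes not picked, OGN alone had every siTIG1 array above every control array, where 16.6% of all genes did. DCN and OLFML3 also did, making 3 of the 10, which follows from how these 2 were picked.

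None of the 8 genes other than DCN and OLFML3 passed limma's threshold, and 0 did at an unadjusted p under 0.05, nor did any of their 15 probe sets. Of all probe sets 2.14% were called higher, and at an unadjusted p under 0.05 10.6% of all genes were higher and 11.3% lower. Their differences lay between -0.01 and 0.11, and the 95% intervals of these differences reached from -0.17 to 0.25 at most. On all 15 probe sets the intervals reached from -0.54 to 0.52, the widest being those of the BGN x_at probe sets. In the fit over all genes 3.16% were called higher and 4.14% lower. DCN and OLFML3 are the 2 of the 10 called higher, which follows from how they were picked. The median difference of the 10 genes was 0.06 and that of all genes 0.02.

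**Figure D3:**
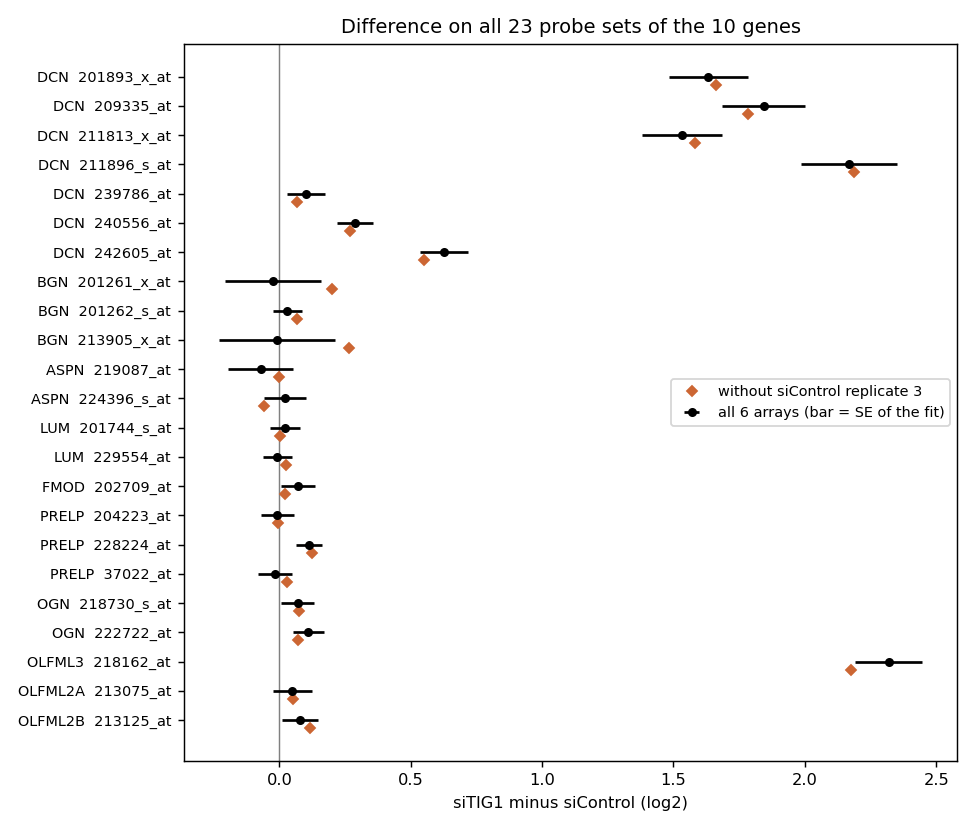
Difference siTIG1 minus siControl (log2) on the 23 probe sets of the 10 genes; black points with bars are the limma difference and its SE over all 6 arrays, and orange diamonds the difference of means without siControl replicate 3. Of DCN, 4 probe sets lie at 1.53 to 2.17 and OLFML3 lies at 2.32, while the diamonds of the 2 BGN x_at probe sets move to 0.20 and 0.27.

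Several SLRP genes lie side by side in the genome, and the neighbours of DCN did not all behave alike. On chromosome 12 the protein-coding genes of the RefSeq table (GRCh38.p14) run EPYC, KERA, LUM, DCN and BTG1. EPYC, epiphycan, a class III SLRP known from growth plate cartilage, read 4.78, 4.85 and 4.73 on the control arrays and 6.72, 5.68 and 5.87 on the siTIG1 arrays. It rose by 1.30 ± 0.26 (SE, limma adjusted p = 0.038), and as for DCN the highest value was that of siTIG1 replicate 1. Its control signals were near the lowest on the arrays, so the size is uncertain. The call was lost without siControl replicate 1 or 2 or siTIG1 replicate 2 or 3 (limma adjusted p up to 0.12), while the difference stayed between 0.99 and 1.51 with any 1 array left out.

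Between EPYC and DCN, KERA, the corneal keratan sulfate proteoglycan keratocan, was at 0.01 ± 0.06 (SE, limma adjusted p = 0.97) and LUM at the value given above. On the other side BTG1, an antiproliferative factor, was at 0.49 ± 0.24 (SE, limma adjusted p = 0.31). On chromosome 9 OGN, OMD, ASPN and ECM2 lie in a row, and none passed: OMD, osteomodulin, was at 0.16 ± 0.09 and ECM2 at -0.10 ± 0.40 (SE, limma adjusted p = 0.35 and 0.92). ECM2 read 9.96, 10.13 and 11.47 on the control arrays, the last being siControl replicate 3, and 10.70, 10.21 and 10.35 on the siTIG1 arrays. Its difference was 0.38 without siControl replicate 3 and then passed (limma adjusted p = 0.049), as did 27.1% of all genes in that fit. On chromosome 1 FMOD, PRELP and OPTC are adjacent, and OPTC, the eye protein opticin, was at 0.02 ± 0.07 (SE, limma adjusted p = 0.90). The genes next to OLFML3 on chromosome 1 were HIPK1, a kinase, at -0.29 ± 0.09, and SYT6, a synaptotagmin, at 0.12 ± 0.09 (SE, limma adjusted p = 0.12 and 0.48). The neighbours were chosen by position after the members' values were known.

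The 250 bases before EPYC (GRCh38.p14, chr12:91004973-91005222, minus strand) are shown because EPYC, alone among the 11 SLRP genes outside the 10, rose, with motif matches in capitals.
EPYC: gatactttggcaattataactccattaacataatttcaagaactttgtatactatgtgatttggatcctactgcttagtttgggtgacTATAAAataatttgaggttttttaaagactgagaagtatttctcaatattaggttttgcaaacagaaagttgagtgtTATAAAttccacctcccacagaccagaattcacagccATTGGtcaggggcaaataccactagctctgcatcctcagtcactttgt
This window held TATAAA 2 times, starting 162 and 85 bases before the gene, and CCAAT on the other strand, starting 48 bases before it. It held 35.6% G and C and 0 CG dinucleotides.

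**Figure D4:**
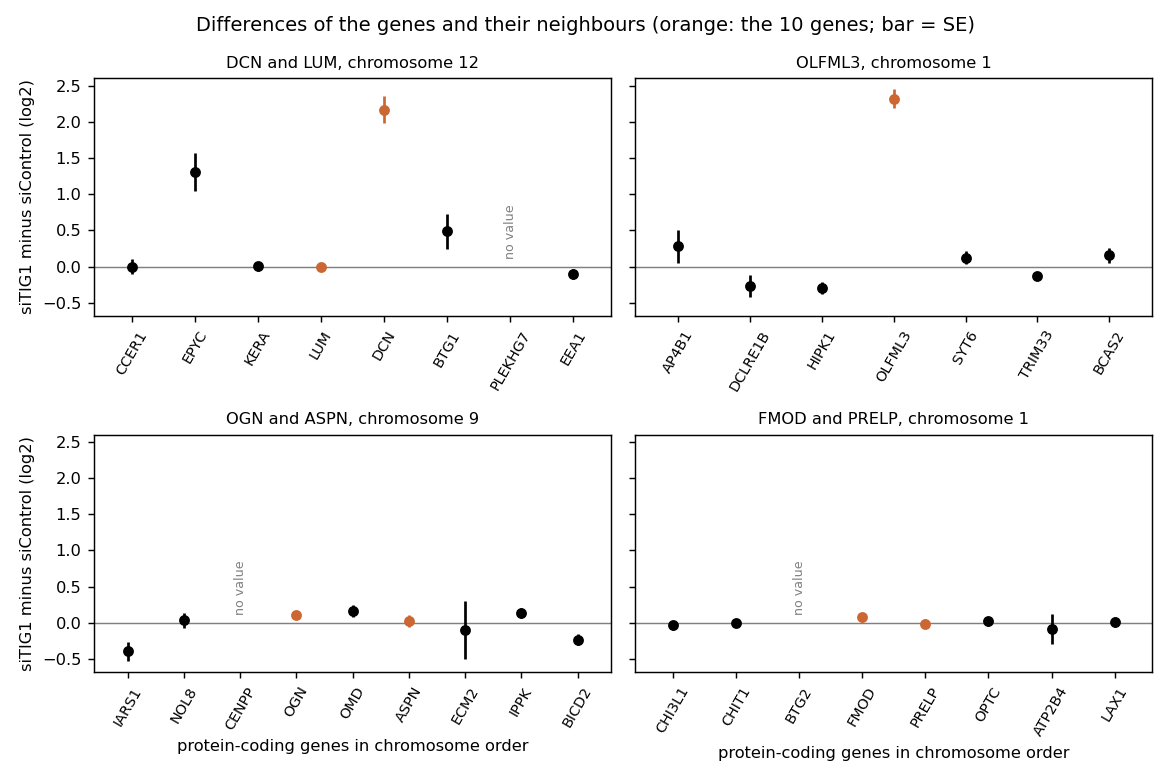
Difference siTIG1 minus siControl (log2; bars are SE of the limma fit) of protein-coding genes in chromosome order around the named genes, with the 10 genes in orange and "no value" for genes without a single-symbol probe set. On chromosome 12 DCN (2.17) and EPYC (1.30) lie high with KERA (0.01) and LUM (-0.01) between them, and around OLFML3 (2.32) the adjacent genes are at -0.29 and 0.12.

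Among the SLRP genes outside the 10, EPYC was the 1 of 11 that rose and none fell (0 lower at an unadjusted p under 0.05), with a list median of 0.02. For this and the lists below, 3.16% of all genes were called higher and 4.14% lower. At an unadjusted p under 0.05 the shares were 10.6% and 11.3%. Of 10 other olfactomedin-domain genes ADGRL2, which encodes the adhesion receptor latrophilin-2, rose from 9.36 ± 0.22 to 10.11 ± 0.02 (SD, n = 3 each), by 0.75 ± 0.11 (SE, limma adjusted p = 0.016), and 9 did not pass. Its second probe set had a difference of 0.09. The call was lost without any single siTIG1 array (limma adjusted p up to 0.089). No gene of that list fell, and 2 were lower at an unadjusted p under 0.05. ADGRL1, latrophilin-1, chosen after its values were seen, was at -0.43 ± 0.11 (SE, limma adjusted p = 0.077) and was called lower without siControl replicate 3 (-0.31, limma adjusted p = 0.0029). In that fit 14.8% of all genes were called lower.

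With all arrays, the enzymes building chondroitin and dermatan sulfate chains that passed were lower, but this depended on the arrays used. Of 22 genes 4 fell, none rose and 18 did not pass, with a median of -0.07. At an unadjusted p under 0.05, 3 were higher and 7 lower, where 10.6% of all genes were higher and 11.3% lower. Over all genes 4.14% fell and 3.16% rose. CSGALNACT2, which starts chondroitin chains, read 9.55, 9.60 and 9.66 on the control arrays and 8.98, 8.92 and 8.97 on the siTIG1 arrays, and fell by 0.65 ± 0.05 (SE, limma adjusted p = 0.0030), with any 1 array left out as well. Its 3 probe sets had this sign, from -0.65 to -0.05. The chondroitin synthase CHSY1 was at -0.30 ± 0.05, and the sulfotransferases CHST7 and CHST3 were at -0.35 ± 0.07 and -0.30 ± 0.06 (SE, limma adjusted p = 0.020, 0.040 and 0.041), and 1 of the 3 CHST3 probe sets had the opposite sign. These 3 calls were lost when any array other than siControl replicate 3 was left out (limma adjusted p up to 0.16). With the mean of probe sets CHST3 was not called (-0.18, limma adjusted p = 0.053). With siControl replicate 3 left out 7 of the 22 genes fell and 4 rose (of all genes 14.8% and 12.2%), among them CSGALNACT1, the paralog of CSGALNACT2 (0.84, limma adjusted p = 1.5e-05, named after its values were seen). Of 7 keratan sulfate genes 1 fell and none rose (1 was higher at an unadjusted p under 0.05): the sulfotransferase CHST2 was at -0.43 ± 0.08 (SE, limma adjusted p = 0.037), while its other probe set was at -0.01, and its call too was lost without any single array other than siControl replicate 3 (up to 0.15). With the mean of each gene's probe sets the list turned: CHST2 was not called (-0.22, limma adjusted p = 0.080), and B3GNT7, which extends keratan sulfate chains, was called higher (0.30, limma adjusted p = 0.026). B3GNT7, named after its values were seen, was at 0.03 on the probe set that stands for it, and 2 of its 4 probe sets passed over all probe sets, with differences up to 0.77.

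Of 18 ligands, receptors and proteases known to bind or process these proteins 2 rose and none fell (1 was lower at an unadjusted p under 0.05), with a median of 0.06. Over all genes 3.16% rose and 4.14% fell. CCN2, connective tissue growth factor, which binds decorin, rose from 7.62 ± 0.24 to 8.72 ± 0.21 (SD, n = 3 each), by 1.10 ± 0.16 (SE, limma adjusted p = 0.014). TLR2, a receptor for soluble biglycan and decorin, rose by 0.38 ± 0.07 (SE, limma adjusted p = 0.035). CCN2 lost its call without any single siTIG1 array (limma adjusted p up to 0.070) and TLR2 without siControl replicate 1 or 2 or siTIG1 replicate 2 or 3 (up to 0.16). EGFR, a decorin receptor, read 12.47, 12.49 and 14.22 on the control arrays and 11.59 to 11.67 on the siTIG1 arrays, with a difference of -1.43 ± 0.46 (SE), not passing (limma adjusted p = 0.14), and 3 of 9 EGFR probe sets had the other sign. Over all probe sets 2 of the 9 passed with all arrays, the lowest difference being -1.94, and the mean of the 9 was called lower (-0.62, limma adjusted p = 0.049). MET, another decorin receptor, was at -0.43 ± 0.28 (SE) with all arrays, with overlapping groups, and did not pass (limma adjusted p = 0.44). Its 4 probe sets ranged from -0.43 to 0.02. When siControl replicate 3 was left out EGFR was at -0.86 and MET at -0.77, and both were called (limma adjusted p = 7.1e-06 and 1.5e-05). That fit called 3 of the 18 genes lower and 2 higher, where 14.8% of all genes were lower and 12.2% higher. EGFR and MET were chosen after their values were seen. BMP1 and CHRD, the partners of OLFML3, were at -0.05 and 0.01 (limma adjusted p = 0.75 and 0.93), and 5 of the 7 BMP1 probe sets had the opposite sign, up to 0.23.

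Collagen genes changed in both directions. In a list of collagen chains of several types and elastin (ELN) 2 of 12 genes rose and 1 fell, with a median of 0.02. Over all genes 3.16% rose and 4.14% fell. COL6A3, a collagen VI chain, read 12.59, 12.66 and 13.13 on the control arrays and 11.36, 11.37 and 11.34 on the siTIG1 arrays, and fell by 1.44 ± 0.14 (SE, limma adjusted p = 0.0052), a call kept with any 1 array left out. COL6A1, another chain of collagen VI, went the other way, by 0.67 ± 0.14, and COL5A1, a collagen V chain, was at 0.27 ± 0.06 (SE, limma adjusted p = 0.038 and 0.040). Of 8 COL6A1 probe sets 2 had the opposite sign, and their mean was not called (0.13, limma adjusted p = 0.13). Both calls were lost when any array other than siControl replicate 3 was left out (limma adjusted p up to 0.17).

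Proteoglycans with other core proteins also changed in both directions, 1 higher and 3 lower of 23, with a median of -0.03. Over all genes 3.16% were called higher and 4.14% lower. SDC2, the cell surface heparan sulfate proteoglycan syndecan-2, read 9.04, 9.18 and 8.71 on the control arrays and 10.65, 10.52 and 10.79 on the siTIG1 arrays. It rose by 1.67 ± 0.13 (SE, limma adjusted p = 0.0030), on all 3 of its probe sets and with any 1 array left out. Syndecan-4 (SDC4) fell by 1.04 ± 0.17, the hyaluronan receptor CD44 by 0.84 ± 0.12 and agrin (AGRN) by 0.40 ± 0.07 (SE, limma adjusted p = 0.020, 0.013 and 0.027). CD44 had the opposite sign on 2 of 13 probe sets and AGRN on 2 of 4. These 3 calls were lost without siControl replicate 2 or any single siTIG1 array (limma adjusted p up to 0.13). In this list 5 of 23 genes rose and 6 fell without siControl replicate 3, where 12.2% of all genes were called higher and 14.8% lower. With the mean of probe sets CD44 (-0.28, limma adjusted p = 0.23) and AGRN (-0.20, limma adjusted p = 0.13) were not called.

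**Figure D5:**
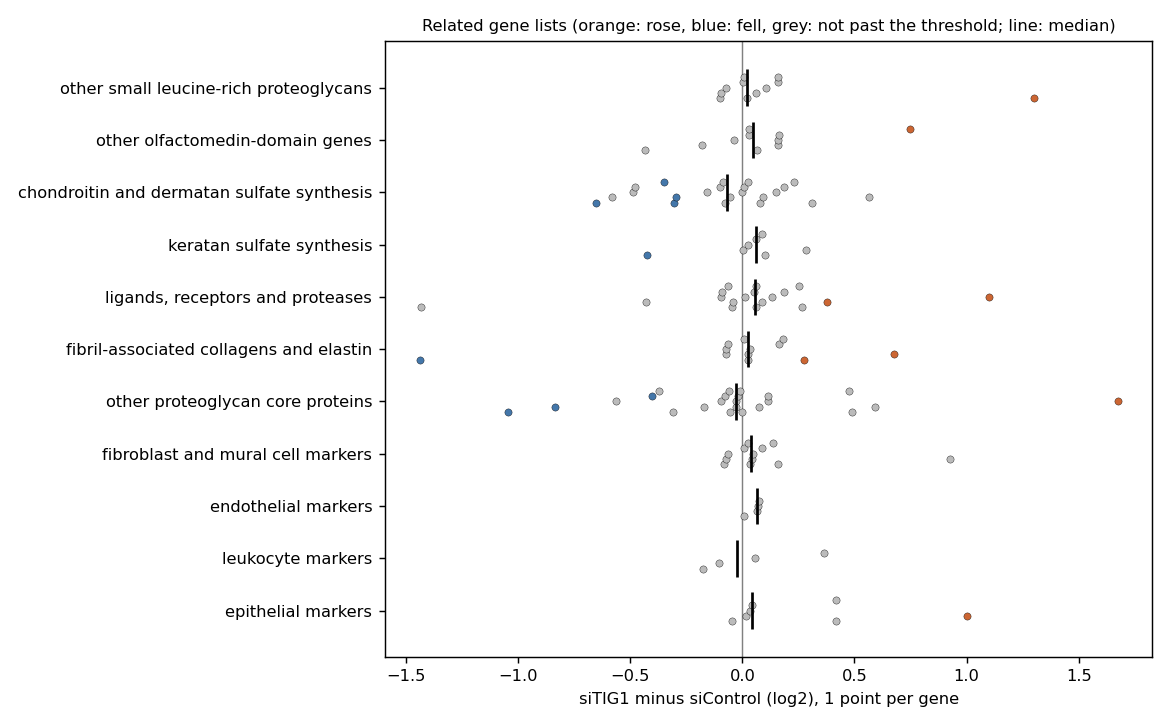
Difference siTIG1 minus siControl (log2) of each gene in 11 lists, 1 point per gene; orange points rose, blue points fell and grey points did not pass, and the black line is the list's median. The medians lie between -0.07 and 0.07, while single genes such as SDC2 (1.67), EPYC (1.30) and COL6A3 (-1.44) lie far from them. The list labelled fibril-associated collagens and elastin holds collagens of several types, not that class alone.

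Because decorin is usually a stromal product, markers of other cell types were read on the same arrays. None of 12 fibroblast and mural cell markers passed (1 was higher at an unadjusted p under 0.05), and their mean signal was 7.98 to 8.01 on the control arrays and 8.07 to 8.13 on the siTIG1 arrays, without overlap. The median difference of this list was 0.04, and the largest was that of FAP, which weighs on the mean. Among single genes, 16.6% of all had every siTIG1 array above every control array. FAP, fibroblast activation protein, was at 0.92 ± 0.26 and MFAP5 at 0.16 ± 0.10 (SE, limma adjusted p = 0.10 and 0.43), while the collagen I and III genes COL1A1, COL1A2 and COL3A1 were at -0.07, 0.03 and -0.06. Without siControl replicate 3, FAP (0.60) and the smooth muscle actin gene ACTA2 (0.32) were called higher. In that fit, here and for the markers below, 12.2% of all genes were called higher and 14.8% lower. None of 4 endothelial markers passed (0 at an unadjusted p under 0.05), the widest being CDH5 and VWF at 0.07 each, and their mean signal was 8.03 to 8.12 and 8.10 to 8.14 in the 2 groups. None of 4 leukocyte markers passed (1 was lower at an unadjusted p under 0.05), with CD14 at 0.36 and LYZ at -0.17, and means of 7.34 to 7.76 and 7.52 to 7.55. CD14 was called higher (0.80) without siControl replicate 3. Of 7 epithelial markers KRT19 rose by 1.00 ± 0.15 (SE, limma adjusted p = 0.016), and EPCAM and CDH1, which mark epithelium, read 14.39 ± 0.12 and 13.48 ± 0.53 in siControl, against 14.34 ± 0.04 and 13.52 ± 0.07 in siTIG1 (SD, n = 3 each). The mean signal of the epithelial markers was 12.27 to 12.57 on the control arrays and 12.71 to 12.75 on the siTIG1 arrays, without overlap. Their median difference was 0.04, and the largest was that of KRT19. At an unadjusted p under 0.05, 3 of the 7 were higher and 0 lower, where 10.6% of all genes were higher and 11.3% lower. These were KRT19 and, named after their values were seen, KRT5 and KRT8, at 0.42 each (limma adjusted p = 0.12 and 0.22). All 3 had every siTIG1 array above every control array and weigh on the mean. KRT19 lost its call without any single siTIG1 array (limma adjusted p up to 0.087). Without siControl replicate 3, 4 epithelial markers rose and 1 fell, where 12.2% of all genes rose and 14.8% fell. The part of other cell types in the DCN difference was not tested, and more cells with a transcript cannot be told apart from more of it per cell on these arrays.

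The genes whose pattern over the 6 arrays lay nearest to DCN and to OLFML3 were listed. Because both were picked for a large difference between the groups, the nearest genes also have one, and that the lists share genes follows from the choice. Nearness was the root mean square difference of log2 values after each gene's mean was removed, among genes with a mean over all arrays above the median level of 8.69, with no test. DCN, OLFML3, SULT1E1, C1S and HCAR3 had control means below that level (7.68, 8.64, 7.97, 8.19 and 8.13) and entered through their siTIG1 values. The nearest to DCN were SERPINA3 (alpha-1-antichymotrypsin, 0.14), SULT1E1 (estrogen sulfotransferase, 0.28), C1S (a complement protease, 0.28), OLFML3 (0.33) and HCAR3 (a hydroxycarboxylic acid receptor, 0.34). SERPINA3 read 9.08, 9.12 and 9.05 on the control arrays and 11.40, 10.94 and 10.93 on the siTIG1 arrays, with siTIG1 replicate 1 the highest as for DCN. The nearest to OLFML3 were SULT1E1 (0.18), EGR1 (an immediate-early transcription factor, 0.26), HCAR3 (0.28), SERPINA3 (0.29) and DCN (0.33). SULT1E1, like OLFML3, had its lowest value on siControl replicate 3, at 7.53 against 8.15 and 8.23 on the other controls. Without siControl replicate 3 the nearest to DCN was MMP7 (a matrix metalloproteinase, 0.11) and the nearest to OLFML3 was SERPINB3 (a serpin, 0.16), and DCN and OLFML3 were no longer among each other's 5 nearest.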

How the data were processed

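The deposited table holds log2 values, summarised per probe set by the authors on Affymetrix HG-U133 Plus arrays. Per the submitters' processing notes MAS5 and RMA were used, without saying for what. The log base is not written and was taken as 2 from the range, 4.28 to 15.59. Groups came from the sample titles. Of 54675 probe sets, 62 controls were left out. Symbols were updated by gene number (RefSeq, GRCh38.p14). Each gene was represented by its probe set with the highest mean, x_at sets only where there was no other, so 19775 genes were tested.

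The test was limma 3.58.1 under R 4.3.3 (2-sided, no block, Benjamini-Hochberg adjustment over all genes or all 54613 probe sets, threshold 0.05), a fit tested on simulated data. The number of arrays limits the precision. Named were the 10 genes, RARRES1, up to 4 genes past the threshold per list by p (otherwise the 2 largest differences) and the 5 nearest patterns. The members and lists were chosen with earlier results of these data known. Other settings tried were leaving out arrays, a replicate block, trended robust eBayes, averaged probe sets, the probe set fit, no dim genes, centring on the median and quantile normalization.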

Additional observations from a re-analysis of the deposited data

How the results depend on the processing

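The DCN difference of 2.17 became 1.17 with the mean of its probe sets, which takes in 3 with differences of 0.63, 0.29 and 0.10, and was otherwise 1.97 to 2.33 with 1 array left out. That of OLFML3 was 2.17 to 2.39 with 1 array left out. DCN and OLFML3 were picked for this difference, so these ranges describe them and are no test. In the fit limited to genes above the median level of 8.69, DCN and OLFML3 entered through their siTIG1 values, with control means of 7.68 and 8.64. Of the other 8 only PRELP entered.

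Over all genes 624 were higher and 818 lower. With 1 array left out the counts were 101 to 2421 and 116 to 2936, the highest without siControl replicate 3. Without both siControl replicate 3 and siTIG1 replicate 1, an alternative chosen after seeing the data, they were 2527 and 2914. The probe set fit called 1171 and 1566.

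The deviations of same-numbered arrays from their group means had correlations of -0.04, -0.01 and -0.01, and those of differently numbered arrays lay at -0.03 to 0.06. With 3 arrays per group these values cannot decide whether the numbers pair the arrays, and the labels do not say. With the replicate block 108 genes were higher and 137 lower, and of the 17 list genes called, 5 were still called (CSGALNACT2, CCN2, COL6A3, SDC2 and KRT19) and 12 were not (EPYC, ADGRL2, CHSY1, CHST3, CHST7, CHST2, TLR2, COL5A1, COL6A1, AGRN, SDC4 and CD44). With the mean of probe sets 5 lost the call, as given with each gene, and 5 others gained it (CHST12, B3GNT7, EGFR, VCAN and SDC1). CHST3 also lost it with quantile normalization and trended robust eBayes, and COL5A1 with median centring.

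The small differences of the other members changed sign under some settings, with no call except as given for the BGN x_at probe sets, and the cause was not tested. With the mean of probe sets BGN was at -0.00070, ASPN at -0.0246, LUM at 0.0070 and PRELP at 0.0295. With quantile normalization PRELP was at 0.0301, and at 0.0032 on 204223_at. Without siControl replicate 3 and siTIG1 replicate 1 ASPN was at -0.0751, LUM at 0.0053 and PRELP at 0.0177. With 1 array left out, the ranges were -0.0037 to 0.0655 (BGN), -0.0573 to 0.0643 (ASPN), -0.0362 to 0.0247 (LUM), -0.0693 to 0.0290 (PRELP) and -0.0167 to 0.1166 (OLFML2A). On other probe sets they were -0.1587 to 0.1993 (BGN 201261_x_at), -0.1623 to 0.2654 (BGN 213905_x_at), -0.2099 to 0.00050 (ASPN 219087_at), -0.0042 to 0.0552 (LUM 201744_s_at) and -0.0363 to 0.0470 (PRELP 204223_at). Signals without a background estimate limit what can be read for LUM, OGN, ASPN and EPYC.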
